A study of Mus musculus with 8 samples.

Results

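The fibroblast growth factor (FGF) genes of heart growth were examined as a set of 10: the secreted ligands Fgf9, Fgf10 and Fgf16, the intracellular relative Fgf12, the receptors Fgfr1, Fgfr2 and Fgfr3, and the feedback genes Spry1, Spry2 and Dusp6. They were chosen by symbol, and each of the 10 stands on 1 row among the 52778 rows of the deposited table. RNA was sequenced from heart tissue of mouse embryos at embryonic day 11.5, named as ventricles in the series design. The extraction protocol instead names cortical neurons. In the 4 conditional knockout (cKO) libraries, floxed copies of Rps19bp1, whose product is a nucleolar partner of ribosomal protein S19, were removed by Xmlc2-Cre (Rps19bp1 fl/fl; Xmlc2-Cre +/-). The Cre acts in cardiomyocytes, so the other cells of the ventricle keep the gene. The other 4 libraries are labelled control, with no statement on whether they carry floxed alleles or Cre, and the genotype label of all 8 libraries names wild-type C57BL/6. No treatment is stated for any embryo. Replicates are described as biological, with no statement on whether a library holds 1 embryo or a pool, or on litters.

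FGFs are secreted proteins that bind receptor tyrosine kinases together with heparan sulfate, and the bound receptor signals through the adaptor Frs2 and the RAS-ERK cascade. In the embryonic heart, ligands from the epicardium and endocardium act on receptors of the myocardium and promote cardiomyocyte proliferation, and FGF signals also act on epicardial cells that enter the myocardium. ERK activity induces its own inhibitors, among them Sprouty proteins, which restrain the cascade upstream of ERK, and Dusp6, a phosphatase that removes the activating phosphates of ERK.

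None of the 7 members abundant enough to be tested differed between cKO and control past the threshold, an adjusted p under 0.05 in limma's test over all 15541 rows with a mean of at least 1 transcript per 1000000 (TPM). The count was 0 of 7, where 6.40% of all tested rows passed (994 rows). These 994 split into 336 higher and 658 lower in cKO, and after quantile normalization the split was 383 higher and 380 lower, after median-ratio scaling 383 and 419, and after rescaling without mitochondrial and globin rows 388 and 396. At an unadjusted limma p under 0.05 the count was 3 of 7, all higher in cKO (Fgfr2, Spry1 and Dusp6), where 23.7% of all tested rows reached that level and 8.36% did so with a higher value in cKO. In 0 of the 7 did the groups fail to overlap, against 15.6% of all tested rows. The other 3 members, Fgf10, Fgf12 and Fgf16, had a mean under 1 TPM over the 8 libraries. They were compared only by two-sided exact permutation, which reassigns the libraries in all 70 ways and cannot give a p below 0.0286. TPM divides reads by transcript length, so levels can be set side by side between genes, but it keeps no depth, and the precision given here is that between libraries.

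The targeted gene checks the labels. Rps19bp1 stood at 15.2, 11.8, 13.7 and 19.2 TPM in cKO libraries 1 to 4 and at 34.7 to 44.2 TPM in the controls, which put the cKO mean at 37.5% of that in control. Cardiomyocyte markers had the largest sum of the marker lists in every library, with 14 genes summing to between 49840 and 55770 TPM. Among markers of tissue that a dissection could include, the foregut endoderm genes Nkx2-1 and Shh and the neural genes Neurod1 and Olig2 were listed at 0 in all 8 libraries. The share of TPM from mitochondrial genes was 13.2% to 16.2% in cKO and 11.4% to 12.2% in control. A larger share lowers all other values, and the median log2 change of all tested rows was -0.02.

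Dusp6, Spry2 and Fgfr1 were the most abundant members, and Fgf10, Fgf12 and Fgf16 the least. The mean level over the 8 libraries was 45.4 TPM for Dusp6, 35.9 for Spry2, 29.96 for Fgfr1, 11.7 for Fgfr2, 11.5 for Spry1, 5.22 for Fgfr3, 4.83 for Fgf9, 0.768 for Fgf10, 0.127 for Fgf12 and 0.0387 for Fgf16. Each gene lay above the next in this order in all 8 libraries, with 2 exceptions. Fgfr2 exceeded Spry1 in 5 of 8 libraries, and Fgfr3 exceeded Fgf9 in 6 of 8. The ranges of these neighbours overlapped within both groups, so their order was not separable from the spread between libraries. Among the controls, the ranges of Dusp6 and Spry2 and those of Spry2 and Fgfr1 overlapped as well, and in cKO those of Fgf12 and Fgf16 did.

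**Figure D1:**
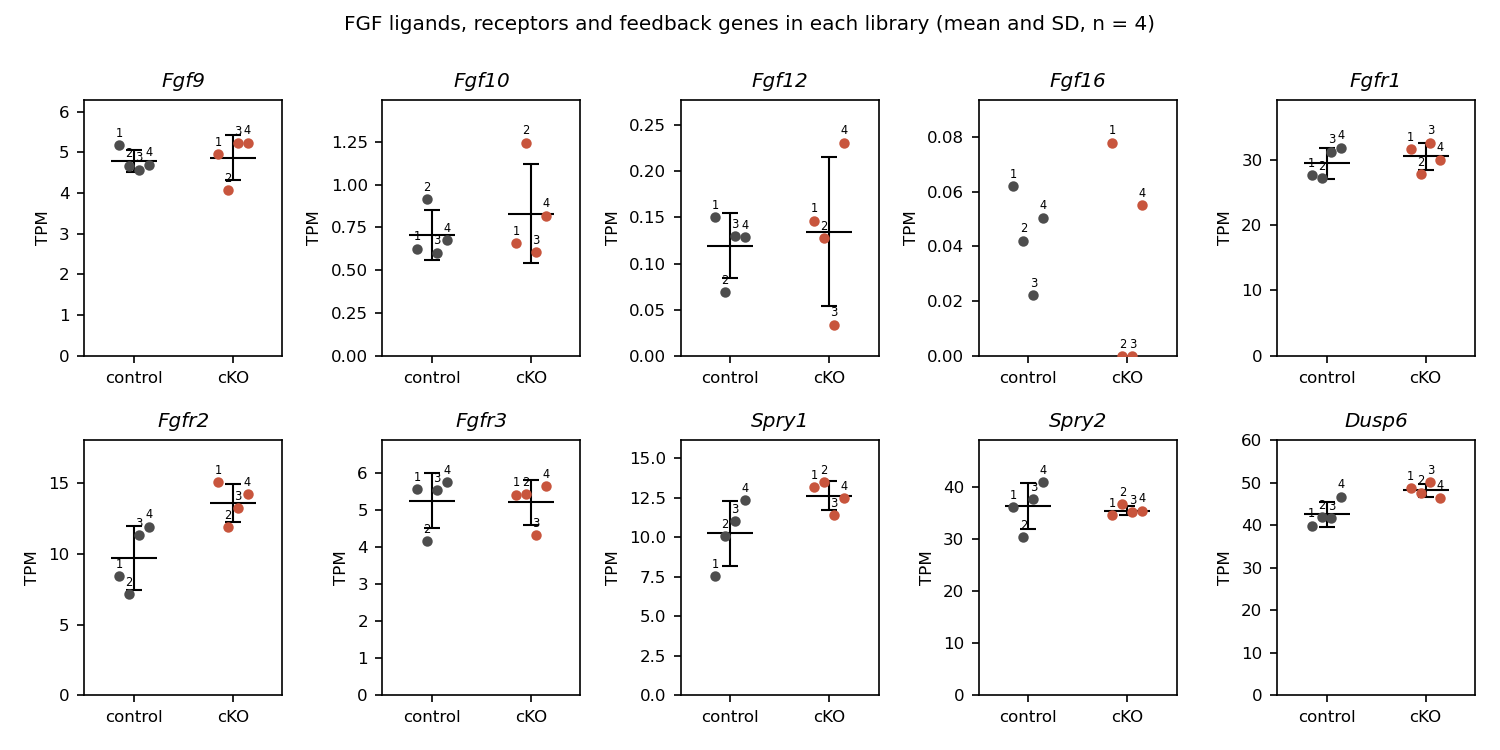
Each panel plots the TPM of 1 gene (y axis, linear and from 0) in the control and cKO libraries (x axis); points are libraries with their replicate number, and black bars give mean and SD (no bar for Fgf16, which has values listed at 0). Fgfr2, Spry1 and Dusp6 each have 3 cKO libraries above all controls, while the groups overlap widely for Fgf9, Fgfr1 and Fgfr3.

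Among the secreted ligands only Fgf9 was abundant enough for limma's test, and its means were close. Fgf9 (chr14:58070671-58112854, plus strand, GRCm38), a ligand of the epicardium and endocardium that drives myocardial growth, stood at 4.95, 4.075, 5.22 and 5.24 TPM in cKO libraries 1 to 4 and at 5.18, 4.67, 4.58 and 4.70 TPM in control libraries 1 to 4. The control values lay within the range of cKO, whose lowest value was that of replicate 2. The means were 4.87 ± 0.547 TPM in cKO and 4.78 ± 0.271 TPM in control (SD, n = 4). The fitted log2 change on the log2(TPM + 1) scale, on which all changes here are given, was 0.02 with a 95% interval of -0.18 to 0.215 (limma adjusted p = 0.927), or between 0.884 and 1.16 times the control value of TPM + 1. The sign of this change was negative after quantile normalization, at -0.01.

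Fgf10 (chr13:118714699-118792573, plus strand), a ligand of the b isoform of Fgfr2 that marks the second heart field (the progenitors of outflow tract and right ventricle), was present at a low level. The cKO libraries held 0.657, 1.245, 0.605 and 0.818 TPM and the controls 0.626, 0.917, 0.602 and 0.677 TPM. Replicate 2 was highest in each group, and the ranges overlapped. The difference of mean log2 values was 0.09 (exact permutation p = 0.6), and without cKO replicate 2 it was -0.01. Isl1, a transcription factor of the same progenitors, was also highest in cKO replicate 2, at 1.47 TPM, and lay between 0.230 and 0.969 TPM in the other 7 libraries. Of the 12 second heart field and pharyngeal markers examined, 10 had a mean under 1 TPM and Hoxb1 was listed at 0 throughout. The list summed to 85.6 to 104.6 TPM in cKO and 76.2 to 85.55 TPM in control, a sum made up mostly of Tcf21, which is also an epicardial gene, and Foxc2.

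Fgf16 (chrX:105764477-105776532, plus strand), which belongs to the same subfamily as Fgf9, was barely represented. It was listed at 0.0779, 0, 0 and 0.0551 TPM in cKO and at 0.0619, 0.0421, 0.0222 and 0.0505 TPM in control. Both values of 0 were in cKO, at replicates 2 and 3, while the highest value was also in cKO (exact permutation p = 0.629). At levels this low a difference between the groups was not detectable. Fgf12 (chr16:28157783-28753243, minus strand) encodes an intracellular FGF homologous factor, which binds voltage-gated sodium channels and is not a secreted growth signal. It held 0.147, 0.128, 0.0337 and 0.231 TPM in cKO and 0.150, 0.0688, 0.130 and 0.129 TPM in control. The cKO values spread around those of the controls on both sides (exact permutation p = 0.914). The related gene Fgf13 was far more abundant, at 28.6 ± 2.47 TPM in cKO and 31.2 ± 2.58 TPM in control (SD, n = 4), with a log2 change of -0.12 (limma adjusted p = 0.385).

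Receptors differed in abundance and in how close the groups lay. Fgfr1 (chr8:25518759-25575718, plus strand), the main FGF receptor of the myocardium, stood at 31.6, 27.8, 32.6 and 29.99 TPM in cKO and 27.6, 27.1, 31.2 and 31.8 TPM in control. The groups covered nearly the same range. Fgfr1 overlaps the predicted genes Gm31288 and Gm16159 on the other strand, with means of 0.177 and 0.155 TPM. The log2 change was 0.05 with a 95% interval of -0.11 to 0.21 (limma adjusted p = 0.72). Fgfr3 (chr5:33721724-33737068, plus strand), a receptor best known for restraining bone growth, stood at 5.42, 5.43, 4.31 and 5.64 TPM in cKO and 5.55, 4.16, 5.54 and 5.75 TPM in control. Each group had 3 libraries close together and 1 lower library, replicate 3 in cKO and replicate 2 in control. The log2 change was -0.01 with a 95% interval of -0.25 to 0.24 (limma adjusted p = 0.974), and it was positive, at 0.01 and 0.02, after median-ratio scaling and after rescaling without mitochondrial and globin rows.

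Fgfr2 (chr7:130162451-130266808, minus strand), whose b and c isoforms bind different ligands, had the largest difference among the members. It stood at 15.1, 11.91, 13.3 and 14.2 TPM in cKO and at 8.44, 7.15, 11.3 and 11.95 TPM in control. Control replicates 1 and 2 were lowest, and the groups overlapped only in that cKO replicate 2 lay just under control replicate 4. The mean was 13.6 ± 1.36 TPM in cKO and 9.72 ± 2.30 TPM in control (SD, n = 4), or 1.40 times the control level. The log2 change was 0.47 (SE 0.142, 95% interval 0.15 to 0.79), with an unadjusted p of 0.00802 and an adjusted p of 0.0814 in limma's test, and the exact permutation p was 0.0571. It did not pass under any of 19 alternative settings, with limma adjusted p from 0.0528 to 0.227 and a log2 change from 0.35 to 0.57. Isoforms cannot be told apart in a table with 1 row per gene.

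The proximal promoters of Fgfr2 and of the feedback genes are shown because Fgfr2, Spry1 and Dusp6 had the smallest p of the set, and Spry2 is set beside its relative Spry1. Each line gives the 250 bases before the RefSeq start, which is also the start of the deposited row, 5' to 3' on the gene's strand, from GRCm38.p6. The windows are chr7:130266809-130267058 (minus strand) for Fgfr2, chr3:37639697-37639946 (plus strand) for Spry1, chr14:105896820-105897069 (minus strand) for Spry2 and chr10:99262981-99263230 (plus strand) for Dusp6. Capitals mark GGAAG, the core letters bound by ETS factors, which ERK signalling controls, or the same letters on the other strand (CTTCC).
Fgfr2: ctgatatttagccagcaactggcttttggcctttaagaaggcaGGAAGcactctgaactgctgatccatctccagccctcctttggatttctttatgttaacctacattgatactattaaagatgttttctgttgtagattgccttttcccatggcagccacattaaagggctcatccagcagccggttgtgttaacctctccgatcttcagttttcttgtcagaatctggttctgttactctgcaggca
Spry1: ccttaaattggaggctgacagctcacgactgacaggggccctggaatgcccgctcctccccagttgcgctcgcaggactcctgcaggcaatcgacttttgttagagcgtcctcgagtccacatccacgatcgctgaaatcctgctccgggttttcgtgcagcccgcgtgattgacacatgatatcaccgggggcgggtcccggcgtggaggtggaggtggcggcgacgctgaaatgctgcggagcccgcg
Spry2: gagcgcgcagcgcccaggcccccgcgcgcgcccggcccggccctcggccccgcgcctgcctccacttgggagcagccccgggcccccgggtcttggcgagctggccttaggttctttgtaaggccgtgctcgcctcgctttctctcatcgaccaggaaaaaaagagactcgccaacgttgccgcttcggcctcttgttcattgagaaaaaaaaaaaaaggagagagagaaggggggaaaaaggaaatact
Dusp6: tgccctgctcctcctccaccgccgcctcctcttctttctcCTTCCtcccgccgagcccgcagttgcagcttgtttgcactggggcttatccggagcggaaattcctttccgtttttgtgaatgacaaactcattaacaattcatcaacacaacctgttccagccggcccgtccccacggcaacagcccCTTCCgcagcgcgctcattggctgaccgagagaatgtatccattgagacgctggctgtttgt
Fgfr2 held 1 match on its own strand, starting 207 bases before the gene start. Dusp6 held 2 on the other strand, 210 and 62 bases before the start. Spry1 and Spry2 held 0 matches to GGAAG, though each of their windows holds the shorter GGAA. Of 32851 promoter entries of the same length, 64.1% held GGAAG on at least 1 strand, so a match is common. The Spry1 and Spry2 windows had 62.4% G and C with 23 CpG each, Dusp6 56.4% with 16 CpG, and Fgfr2 44.0% with 2, against medians of 52.4% and 6 over all entries. Of the 10 members, 8 had an entry in the RefSeq promoter table.

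None of the 3 feedback genes passed the threshold. Spry1 and Dusp6 each had 3 cKO libraries above all controls, and all cKO values of Spry2 lay inside the control range. Spry1 (chr3:37639947-37644599, plus strand) stood at 13.2, 13.5, 11.4 and 12.5 TPM in cKO and at 7.54, 10.1, 11.04 and 12.35 TPM in control. Control replicate 1 was lowest, and control replicates 3 and 4 lay within or next to the cKO range. The means were 12.6 ± 0.931 TPM in cKO and 10.25 ± 2.04 TPM in control (SD, n = 4). The log2 change was 0.29 (95% interval 0.02 to 0.57), with an unadjusted p of 0.0387 and an adjusted p of 0.184 in limma's test (exact permutation p = 0.0571), and it was 0.17 without control replicate 1.

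Dusp6 (chr10:99263231-99267489, plus strand) stood at 48.6, 47.65, 50.1 and 46.5 TPM in cKO and at 39.9, 41.9, 41.6 and 46.7 TPM in control. The values of 3 control libraries lay together below all cKO libraries, and control replicate 4 lay just above cKO replicate 4. The means were 48.2 ± 1.545 TPM in cKO and 42.5 ± 2.905 TPM in control (SD, n = 4). The log2 change was 0.18 (SE 0.0557, 95% interval 0.06 to 0.30), with an unadjusted p of 0.0092 and an adjusted p of 0.0869 in limma's test (exact permutation p = 0.0571). The call depended on scaling and on 1 library: the adjusted p was 0.0498 after quantile normalization and 0.0478 without control replicate 4, and it did not pass under the other 17 alternatives, which reached 0.218. Dusp6 shares 626 bases with a predicted gene on the other strand, Gm34921, which had a mean of 0.703 TPM.

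Spry2 (chr14:105891947-105896819, minus strand) stood at 34.7, 36.7, 35.2 and 35.5 TPM in cKO and at 36.2, 30.4, 37.6 and 40.96 TPM in control. The cKO libraries lay close together inside the wider control range, which control replicate 2 opened at the low end and control replicate 4 at the high end. The log2 change was -0.02 with a 95% interval of -0.20 to 0.155 (limma adjusted p = 0.894). Its sign was positive after quantile normalization (0.02) and after rescaling without mitochondrial and globin rows (0.01).

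**Figure D2:**
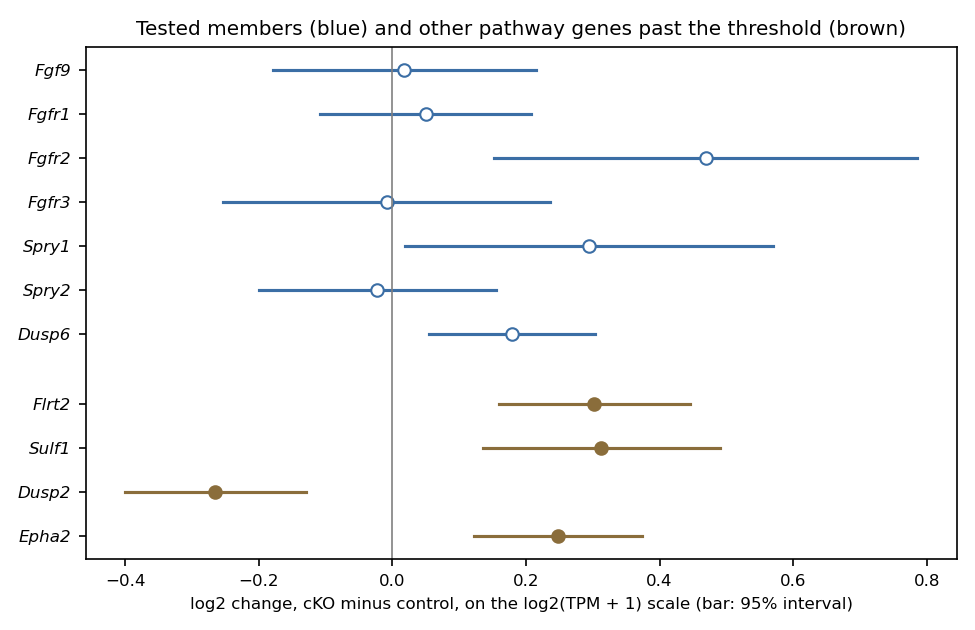
The x axis gives the fitted log2 change (cKO minus control, log2(TPM + 1) scale) with its 95% interval, which is not adjusted for the number of rows tested; the y axis lists the 7 tested members (blue) and the 4 other pathway genes past the threshold (brown), with filled points for an adjusted p under 0.05. The intervals of Fgfr2, Spry1 and Dusp6 lie above 0 with open points, and those of Fgf9, Fgfr1, Fgfr3 and Spry2 include 0.

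Whether members of a class differed from each other was examined with their ratio within each library, which scaling moves little. There are 6 such pairs, 3 among receptors and 3 among feedback genes. Fgfr1 exceeded Fgfr2 by 2.09, 2.33, 2.46 and 2.11 times in cKO libraries 1 to 4 and by 3.27, 3.79, 2.75 and 2.66 times in control libraries 1 to 4. All cKO ratios were below all control ratios. The difference in log2 ratio was -0.42 (exact permutation p = 0.0286, the smallest possible, and 0.0857 when adjusted over the 6 pairs). Fgfr2 over Fgfr3 gave 2.19 to 3.075 times in cKO and 1.52 to 2.08 times in control, also without overlap, with a difference of 0.48 in the log2 ratio and the same exact permutation p values. Fgfr1 over Fgfr3 did not separate the groups (difference 0.06, exact permutation p = 0.714). Both ratios that separated the groups contain Fgfr2, so they are not independent results. The log2 change of Fgfr2 was 0.47, against 0.05 for Fgfr1 and -0.01 for Fgfr3. The ratios were chosen with earlier results of these data known. After adjustment over the pairs no ratio passed 0.05, a level that these group sizes could not reach here unless more pairs had been separated.

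Among the feedback genes, Spry1 stood at 0.324 to 0.380 times the level of Spry2 in cKO and at 0.208 to 0.332 times in control. Only cKO replicate 3 lay under the highest control, replicate 2. The difference in log2 ratio was 0.32 (exact permutation p = 0.0571, adjusted over the pairs 0.114), and without control replicate 2 it was 0.40 with the groups apart (exact permutation p = 0.0286). Spry2 over Dusp6 differed by -0.20 (exact permutation p = 0.0857) and Spry1 over Dusp6 by 0.115 (exact permutation p = 0.4). The 2 Sprouty genes were thus not shown to differ in response at the usual threshold.

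**Figure D3:**
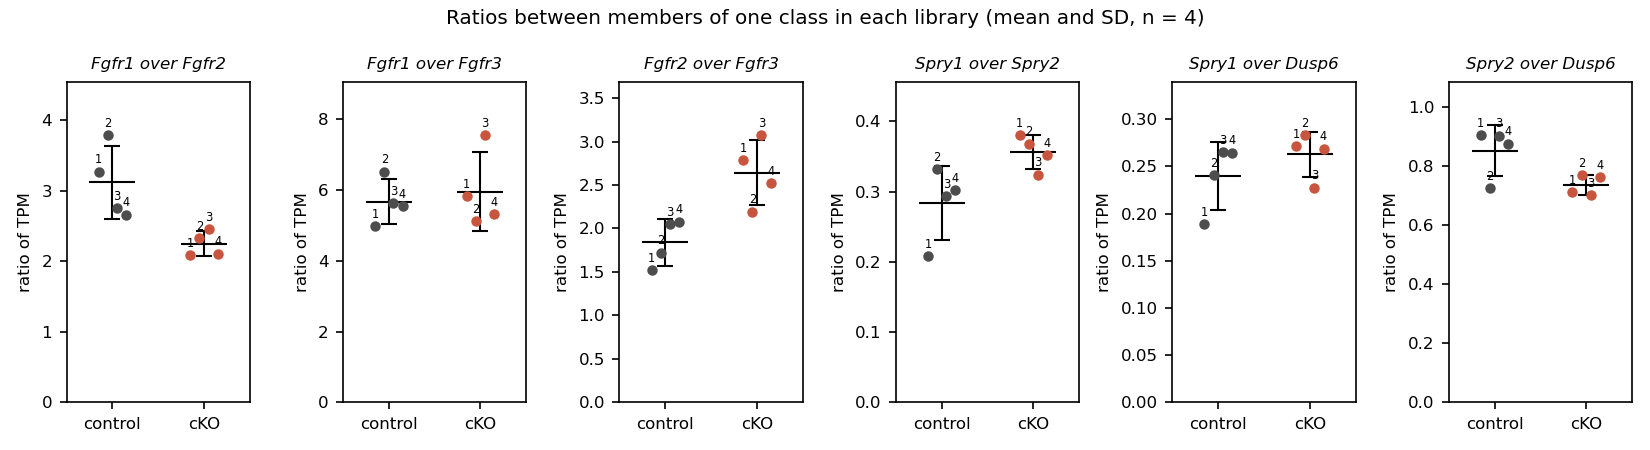
Each panel plots the ratio of TPM of 2 genes (y axis, linear and from 0) in the control and cKO libraries (x axis); points are libraries with their replicate number, and black bars give mean and SD (n = 4). The groups are apart in the ratio of Fgfr1 over Fgfr2, at 2.09 to 2.46 in cKO and 2.66 to 3.79 in control, and in that of Fgfr2 over Fgfr3.

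The rest of the pathway was described with 90 further genes in 7 lists, of which 89 are on the table and 71 were tested. Of the 71, 4 passed the threshold, 3 higher and 1 lower in cKO, where 2.16% of all tested rows were called higher and 4.23% lower. Their median log2 change was 0.03, against 0.05 for the 7 tested members and -0.02 for all tested rows. At an unadjusted limma p under 0.05 the count was 17 of 71, near the 23.7% of all tested rows. Of these, 10 were higher and 7 lower, where 8.36% of all tested rows were higher and 15.4% lower at that level.

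Of 15 other ligands, 11 had a mean under 1 TPM, and Fgf4, Fgf20 and Fgf21 were listed at 0 in every library. The 4 tested ligands were Fgf1, Fgf2, Fgf18 and Fgf23, and 0 of them passed in limma's test, with 0 at an unadjusted p under 0.05. Fgf1 was the most abundant of them, at 12.9 TPM in cKO and 11.8 TPM in control, above Fgf9. Fgf2, which overlaps Nudt6 on the other strand, had the smallest p, with 4.26 ± 0.686 TPM in cKO and 3.53 ± 0.264 TPM in control (SD, n = 4, log2 change 0.21, limma adjusted p = 0.254). The list of 3 other intracellular factors had 2 tested genes and 0 past the threshold, with 0 at an unadjusted p under 0.05.

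Receptor partners and heparan sulfate enzymes each had 1 gene past the threshold. Among 16 other receptors and co-receptors, 11 were tested and Flrt2 rose, a membrane protein that binds FGF receptors and unc5 receptors. Flrt2 stood at 28.4, 28.8, 28.3 and 25.9 TPM in cKO and at 20.1, 23.2, 23.9 and 22.5 TPM in control. All cKO libraries lay above all controls (log2 change 0.30, SE 0.0643, limma adjusted p = 0.0264). Among 11 heparan sulfate genes, all tested, Sulf1 rose, a secreted enzyme that removes 6-O-sulfates from heparan sulfate and thereby alters its binding of growth factors. Sulf1 stood at 48.4, 39.98, 40.8 and 41.4 TPM in cKO and at 34.9, 29.8, 34.7 and 37.04 TPM in control, again without overlap (log2 change 0.31, SE 0.0795, limma adjusted p = 0.0458).

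The signalling cascade showed no called gene. Of 19 adaptor and RAS-ERK genes, all tested, 0 passed in limma's test, where 6.40% of all tested rows passed. At an unadjusted limma p under 0.05 the count was 5, with 1 higher and 4 lower. Of all tested rows, 8.36% were higher and 15.4% lower at that level. The list summed to 1027 to 1091 TPM in cKO and to 1098 to 1132 TPM in control, without overlap (exact permutation p = 0.0286). The adaptor Grb2, which links receptors to RAS activation, had the smallest p, at 60.5 ± 2.13 TPM in cKO and 68.7 ± 2.73 TPM in control (SD, n = 4, log2 change -0.18, limma adjusted p = 0.051). Grb2 passed with a mean of at least 5 TPM (adjusted p = 0.0455) and with array weights (0.0492), and had an adjusted p of 0.142 after quantile normalization.

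Among other feedback inhibitors and ERK outputs 1 gene passed in each list, in opposite directions. Of 12 feedback inhibitors tested, Dusp2 fell, a nuclear phosphatase of ERK. Dusp2 stood at 15.2, 14.8, 16.8 and 16.9 TPM in cKO and at 18.4, 19.9, 19.8 and 19.1 TPM in control, with all cKO libraries below all controls (log2 change -0.26, SE 0.0606, limma adjusted p = 0.03335). After quantile normalization, median-ratio scaling and rescaling without mitochondrial and globin rows Dusp2 was not past the threshold, with log2 changes of -0.25, -0.24 and -0.23. Of 12 ERK output genes tested, Epha2 rose, an ephrin receptor whose transcription ERK activity raises. Epha2 stood at 18.6, 18.2, 20.4 and 18.4 TPM in cKO and at 16.1, 15.9, 14.9 and 16.1 TPM in control (log2 change 0.25, SE 0.0564, limma adjusted p = 0.0328). In this list 4 of the 12 reached an unadjusted limma p under 0.05, all higher in cKO (Epha2, Etv1, Ccnd1 and Epha4). Of all tested rows, 8.36% were higher at that level. All cKO libraries lay above all controls for each of these genes. Ccnd1 stood at 127.5 ± 6.00 TPM in cKO and 114.5 ± 6.12 TPM in control (SD, n = 4, limma adjusted p = 0.118). Among the feedback inhibitors 2 reached that level, both lower, where 15.4% of all tested rows were lower. Egr1, Fos, Etv4 and Etv5, common readouts of ERK signalling, did not pass (limma adjusted p between 0.351 and 0.809). Their changes on the log2 scale were -0.21, 0.08, -0.21 and 0.12.

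The calls of Flrt2, Sulf1, Dusp2 and Epha2 were not stable to the choice of libraries. Of the 71 genes, 0 passed without cKO replicate 1, cKO replicate 3, control replicate 1, control replicate 2 or control replicate 4, 1 passed without cKO replicate 2 or control replicate 3, and 5 without cKO replicate 4. Leaving out a library also lowers the number of samples. All 4 genes kept their direction in these fits.

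**Figure D4:**
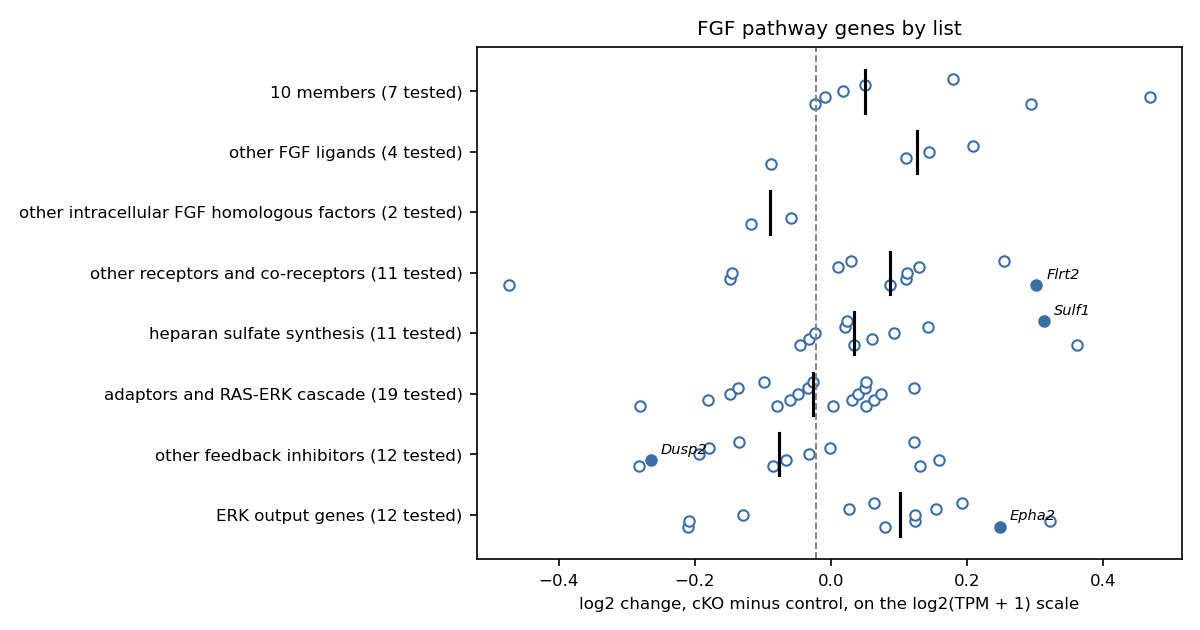
Each point is a tested gene, placed by its log2 change (x axis, cKO minus control, log2(TPM + 1) scale) and its list (y axis, with the number tested); filled points passed the threshold, black bars are list medians and the dashed line is the median of all 15541 tested rows. List medians lie between -0.09 and 0.13, and the 4 filled points are Flrt2, Sulf1, Dusp2 and Epha2.

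Markers of epicardial and mesenchymal cells included genes past the threshold. In bulk tissue a larger share of cells of a type and more RNA per cell cannot be told apart. Of 13 tested epicardial markers, 5 rose (Wt1, Tbx18, Tcf21, Upk3b and Gpm6a) and 0 fell, with a median log2 change of 0.36. Of all tested rows, 2.16% were called higher in cKO and 4.23% lower. Tcf21, a transcription factor of epicardium and cardiac fibroblast precursors, had the smallest p, at 60.2 ± 7.43 TPM in cKO and 41.55 ± 3.90 TPM in control (SD, n = 4), with a log2 change of 0.52 (limma adjusted p = 0.0121). The list summed to 699, 644, 699 and 592 TPM in cKO libraries 1 to 4 and to 546, 553, 615 and 559 TPM in control libraries 1 to 4, and none of its genes was at 0 in all libraries. Of 12 mesenchymal markers, 5 rose (Col1a2, Col3a1, Dcn, Pdgfra and Fbln2) and 0 fell, beside the same shares of all tested rows, with a median of 0.465. The mesenchymal list summed to 1378, 1171, 1242 and 1191 TPM in cKO and to 967, 805, 994 and 1028 TPM in control, without overlap. Control replicate 2, the library with the least Fgfr2, also had the lowest mesenchymal sum, and cKO replicate 1, with the most Fgfr2, had the highest. Col3a1, a fibrillar collagen gene, had the smallest p of that list, at 293 ± 12.8 TPM in cKO and 222 ± 12.98 TPM in control (SD, n = 4), with a log2 change of 0.40 (limma adjusted p = 0.00459). Pdgfra, a receptor of fibroblast precursors, stood at 31.6 ± 2.01 TPM in cKO and 19.9 ± 5.26 TPM in control (SD, n = 4, log2 change 0.68, limma adjusted p = 0.0322), and it passed under 10 of 19 alternatives. The part of these cell types in the values of Fgfr2, Spry1, Dusp6, Flrt2, Sulf1 and Epha2 was not tested.

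Of 14 cardiomyocyte markers tested, 1 fell and 0 rose, where 6.40% of all tested rows passed. At an unadjusted limma p under 0.05 the count was 3, all lower, where 15.4% of all tested rows were lower at that level. The change was negative in 11 of the 14, with a median of -0.05, and the sums overlapped between the groups. The one that fell was Nkx2-5, a cardiac transcription factor, at 204.5 ± 37.7 TPM in cKO against 282 ± 27.7 TPM in control (SD, n = 4). Its log2 change was -0.48 (limma adjusted p = 0.0453), and it passed under 5 of 19 alternatives. Of 12 endocardial and endothelial markers, 0 passed in limma's test and 5 had an unadjusted p under 0.05, all higher, where 8.36% of all tested rows were higher at that level. The change was positive in 11 of these 12, with sums of 966 to 1091 TPM in cKO and 912 to 976 TPM in control. Npr3 had the smallest p of that list (log2 change 0.25, limma adjusted p = 0.0561). Of 12 erythroid markers, 0 passed and 1, Tfrc, had an unadjusted p under 0.05 (log2 change -0.26, limma adjusted p = 0.0698), with sums of 2079 to 4394 TPM in cKO and 2311 to 8246 TPM in control. The highest erythroid sum was that of control replicate 4, the library without which Dusp6 passed. After rescaling without mitochondrial and globin rows Dusp6 did not pass (limma adjusted p = 0.0606). A part of blood content in the values of Dusp6 was not tested. Of 10 foregut and 12 neural markers, 1 and 3 were abundant enough to test, and 0 passed, with 0 at an unadjusted p under 0.05. The smallest p of each was that of Irx2 (log2 change -0.25, limma adjusted p = 0.366) and Tubb3 (0.43, limma adjusted p = 0.331).

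**Figure D5:**
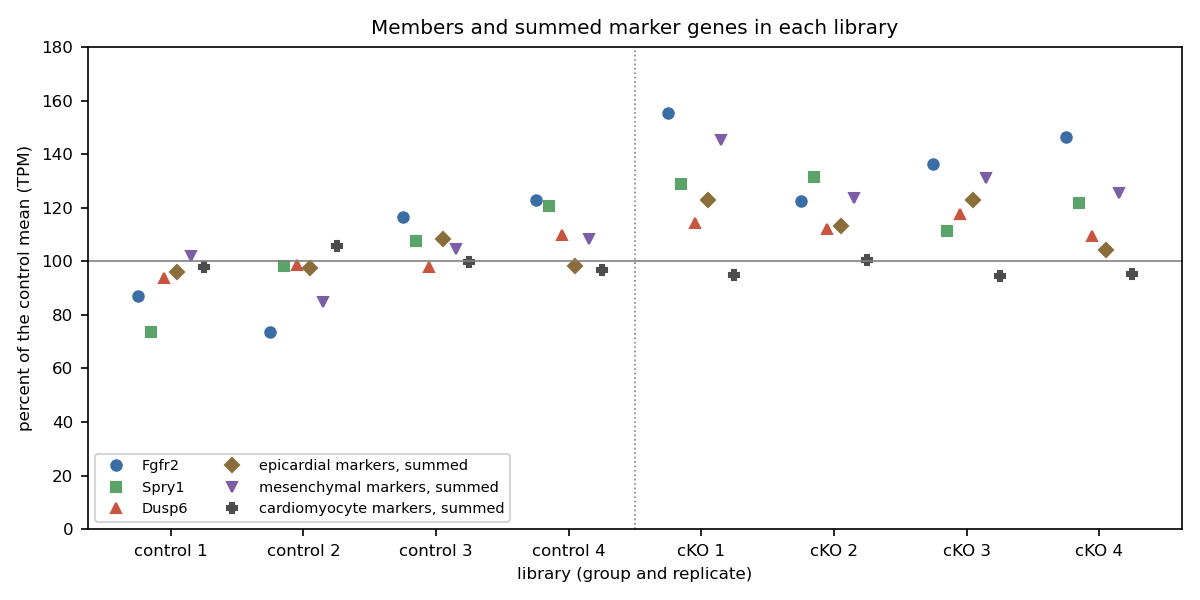
The y axis gives each value as percent of the mean of the 4 control libraries (linear, from 0), and the x axis the 8 libraries by group and replicate; symbols stand for Fgfr2, Spry1, Dusp6 and the summed TPM of the epicardial, mesenchymal and cardiomyocyte marker lists. Mesenchymal sums are higher in all 4 cKO libraries (1171 to 1378 TPM) than in any control (805 to 1028 TPM), while cardiomyocyte sums overlap.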

How the data were processed

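RNA-seq of ventricular tissue was deposited as 1 table with a column for each of 8 libraries (4 cKO, 4 control); groups and replicate numbers come from the sample titles. The authors deposited values named TPM, and each column sums to 999999 to 1000000 over 52778 rows. FastQC, Trim Galore 0.6.7, HISAT2 2.2.1, StringTie 2.2.1, featureCounts, DESeq2 and the build GRCm38 are listed per the submitters' processing notes, without roles; the tool behind the TPM, the annotation and the use of strand are not given in the sources used here. The labels disagree on the material: the extraction protocol names cortical neurons and rRNA depletion, the series design names ventricles and a stranded mRNA kit. Of 49589 rows found by symbol and chromosome in RefSeq's GRCm38.p6 table, all but 1 (49588) matched in both coordinates.

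Values were analysed as log2(TPM + 1) with limma 3.58.1 in R 4.3.3 (lmFit, eBayes with trend, group as the only term, two-sided) on rows with a mean of at least 1 TPM, with Benjamini-Hochberg adjustment over all of them. The pseudocount understates changes of low genes. The fit was tested on simulated data. TPM keeps no depth, so no counting error is given. Members, lists and ratios were chosen with earlier results of these data known. Named genes were all members, Rps19bp1, other pathway genes past the threshold, the smallest p of each pathway list with none and of each marker list; other genes were named after their values were seen. Alternatives were pseudocounts of 0.1 and 5, no filter or a mean of at least 5 TPM, quantile normalization, rescaling without mitochondrial and globin rows, median-ratio scaling, no trend, array weights, a replicate block, a Y-linked score as covariate, and each library left out. Some listed genes are not reported here by name.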

Additional observations from a re-analysis of the deposited data

Results flagged for a closer look

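In a group of 4 libraries, a value was singled out where its gap to the nearest other took up more of the group's range than Dixon's 95% limit for 4 values. This held in 3 of 52 groups examined, and chance gives about 1 in 20. Fgfr3 was lowest in cKO replicate 3, at 4.31 TPM against 5.42 in the next library, a gap just at the limit (0.8291). It was lowest among the controls in replicate 2, at 4.16 TPM against 5.54 in the next (0.867 of the range). The summed cardiomyocyte markers were highest in cKO replicate 2, at 52970 TPM against 50260 in the next cKO library (0.866 of the range).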

How the results depend on the processing

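The number of members past the threshold was 0 under 17 of 19 alternatives and 1 (Dusp6) after quantile normalization and without control replicate 4, so it ranged from 0 to 1 when libraries were left out. Fgfr2, Spry1 and Dusp6 were higher in cKO under all 19 alternatives, while Fgf9, Fgfr1, Fgfr3 and Spry2 took either sign within a range of -0.10 to 0.09. The count of other pathway genes, 4 in the fit reported, was 0 without the filter, 0 with the replicate block and 1 with the Y-linked covariate, and 0 to 5 when libraries were left out. The count of marker genes, 11 in the fit reported, was 2 without the filter, 7 without the trend and 5 with the Y-linked covariate, and 5 to 14 when libraries were left out. Over the whole table the 994 calls became 347 without the filter, 609 without the trend, 420 with the replicate block and 337 with the Y-linked covariate, and 390 to 938 when libraries were left out; the cause was not tested, beyond the fewer samples of the last. The share of calls that were higher in cKO was 33.8% as deposited, 50.2% after quantile normalization, 47.8% after median-ratio scaling and 49.5% after rescaling without mitochondrial and globin rows. With the replicate block Dusp2, Epha2, Flrt2, Sulf1 and Nkx2-5 lost their calls (limma adjusted p 0.0594 to 0.0994), and no call of a member changed. Deviations of same-numbered libraries from their group means had correlations of -0.089 to 0.067. Of the 4 cKO libraries, 2 correlated best with the control of their own number. Litters are not stated, and these correlations cannot settle whether the numbers pair the samples. The ratio of Fgfr1 over Fgfr2 had an exact permutation p of 0.0571 without cKO replicate 1, 2 or 4, and that of Fgfr2 over Fgfr3 without cKO replicate 3 or any 1 control. The groups stayed apart in both ratios whichever library was left out. Fewer assignments are possible with a library left out, so these larger p values do not show a loss of separation.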

Other observations

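Other genes that shape FGF reception also separated the groups without passing the threshold. Of the 71 tested pathway genes, 16 had groups that did not overlap, where 15.6% of all tested rows did, and 12 of these 16 were not past the threshold in limma's test, 7 higher and 5 lower in cKO. These genes were picked after their values were seen. Fgfbp3, a secreted carrier that releases FGFs from the matrix, had the largest difference of them, at 3.83 ± 0.996 TPM in cKO and 5.60 ± 0.187 TPM in control (SD, n = 4, log2 change -0.47, limma adjusted p = 0.0654). Etv1, a transcription factor of the ETS family, differed by 0.32 on the log2 scale (limma adjusted p = 0.07), Gpc4, a heparan sulfate proteoglycan of the cell surface, by 0.25 (0.089), and Epha4 by 0.19 (0.071).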
